A study of Mus musculus with 9 samples.

Results

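Complex I genes were followed across mouse left ventricle in MI+BPD, MI and Sham hearts. The members are all symbols of the count table that begin with Nduf, then a, b, c, s or v and a number, or that read Ndufaf and a number, leaving out names with the pseudogene ending -ps. This gave 48 of 55367 symbols. They hold 35 genes of subunits (7 core and 28 accessory) and 8 genes of assembly factors. The other 5 are Ndufa4 and Ndufa4l2, whose proteins are not counted as complex I subunits, and Ndufa11b, Ndufb4c and Ndufs6b, which GENCODE M21 lists as processed pseudogenes. A total of 45 passed the filter on low counts, and the 3 pseudogenes did not.

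Bulk RNA of heart tissue was sequenced in 3 libraries a group. MI+BPD hearts had a myocardial infarction and BPD, given in the proliferative phase of healing per the labels, which neither spell the name out nor give a dose. MI hearts had the infarction alone, both being sampled at day 14. Sham is the operation without infarction, with no day of its own in the labels, which also give no strain, age or sex and do not say that each library came from its own animal, so p-values may measure technical spread only. The RNA is described as coming from left ventricle with the infarct core and its border, which Sham hearts lack.

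Complex I (NADH:ubiquinone oxidoreductase) takes electrons from NADH, hands them to ubiquinone and pumps protons across the inner mitochondrial membrane. Its peripheral arm in the matrix has an N module, which oxidises NADH, and a Q module, which reduces ubiquinone; its membrane arm is built in modules named after the mitochondrially encoded subunits ND1, ND2, ND4 and ND5. Core subunits do the catalysis, accessory subunits surround and stabilise them, and assembly factors help to build the enzyme without staying in it. Heart muscle is rich in mitochondria and expresses these genes at high levels.

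Since the members lie on 17 chromosomes and moved together in the comparisons with Sham, their start sites were searched for 4 short motifs of factors known to act on respiratory chain genes. RefSeq promoters (GRCm38.p6, 250 bases before to 50 after the start) matched 39 of the 48 symbols, and both strands were searched. The YY1 motif AAGATGGC, which holds the letters ATG of a start codon, was in 8 of 39 members (20.5%) and in 3.19% of all 27025 genes. Every one of the 8 matches lay on the gene's own strand, with its first base 11 to 39 bases from the start. Whether the ATG in a match is the start codon of its gene, which would bear on its strand and place, was not checked. In the 50 bases after the start alone, the motif was in 20.5% of the 39 members and 1.04% of all genes. All genes here means those with a RefSeq promoter, whether or not they are expressed in heart. The half-site of NRF1, GCATGCGC, was in 5 of 39 members (12.8%), against 3.05% of all genes. The motif TCAAGGTCA of the estrogen-related receptors was in 0 of 39, against 0.466%, and the ETS motif CCGGAAGT in 1 of 39 (2.56%, Ndufs3), against 4.31%. At shares so low over all genes, 39 members are too few to show that either motif is scarcer among them. Because all 8 YY1 matches lie on the gene's strand after the start, windows of 30 bases around them are shown. These run 5′ to 3′ on the gene's strand with the motif in capitals:
Ndufs7 (chr10:80249462-80249491, plus strand): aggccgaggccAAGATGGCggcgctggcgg
Ndufs4 (chr13:114388045-114388074, minus strand): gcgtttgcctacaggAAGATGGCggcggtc
Ndufs6 (chr13:73328433-73328462, minus strand): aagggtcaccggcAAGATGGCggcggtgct
Ndufa9 (chr6:126849097-126849126, minus strand): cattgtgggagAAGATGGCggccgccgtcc
Ndufa3 (chr7:3617384-3617413, plus strand): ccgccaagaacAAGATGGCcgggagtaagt
Ndufb8 (chr19:44555393-44555422, minus strand): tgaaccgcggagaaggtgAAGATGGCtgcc
Ndufc1 (chr3:51408915-51408944, minus strand): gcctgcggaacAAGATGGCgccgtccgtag
Ndufaf8 (chr11:120098933-120098962, plus strand): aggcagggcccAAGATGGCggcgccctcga
The NRF1 half-site overlaps its own reverse complement in 3 of its 5 genes, and the capitals then mark both:
Ndufa8 (chr2:36049328-36049357, minus strand): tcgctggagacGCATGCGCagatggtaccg
Ndufa6 (chr15:82354356-82354385, minus strand): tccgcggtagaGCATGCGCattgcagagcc
Ndufa11 (chr17:56717691-56717720, plus strand): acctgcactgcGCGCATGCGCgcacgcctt
Ndufaf4 (chr4:24897959-24897988, plus strand): cccagatgtctGCGCATGCGCctgtgcgga
Ndufaf5 (chr2:140170651-140170680, plus strand): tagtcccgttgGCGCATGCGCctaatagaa
A match describes these letters only and shows no binding, and the changes of members with and without a motif were not compared.

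Total counts ran from 17006222 to 17424302 in MI+BPD, 19101748 to 19269072 in MI and 14451410 to 17703461 in Sham. Genes of mitochondrial DNA took 17.6% to 25.7% of the counts in MI+BPD, 11.4% to 18.2% in MI and 34.4% to 35.2% in Sham. All 10 cardiomyocyte markers were counted in every library, and their summed level was 32880 to 52630 CPM (counts scaled to library size and by the trimmed mean of M values) in MI+BPD, 19330 to 34660 in MI and 95430 to 98540 in Sham. All 10 were lower in MI than in Sham (median log2 change -1.88), while 7 of 7 fibroblast markers were higher, with sums of 18440 to 19930 CPM in MI+BPD, 13520 to 20520 in MI and 1047 to 1203 in Sham, as were 6 of 6 macrophage markers. White adipocyte markers summed to 43.7 CPM in MI 1 and were near 0 elsewhere. In bulk tissue, fewer heart muscle cells and less RNA per cell cannot be told apart. The libraries MI 3 and MI+BPD 1 had the highest level of all 10 cardiomyocyte markers in their groups and stood apart in the same way for complex I, so results that rest on them are also given without them.

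Nuclear complex I genes fell in MI hearts almost without exception. Of the 45 tested, 43 were lower than in Sham, 1 was higher and 1 did not pass, at an adjusted p under 0.05 in edgeR's quasi-likelihood test. Over all 15138 genes tested, 31.9% were lower and 37.0% higher. The median log2 change was -1.64 over the members and 0.07 over all genes. Reads of the 35 subunits summed to 2347, 2676 and 4198 CPM in the MI libraries, against 10020, 10360 and 10600 CPM in Sham. That is 29.8% ± 9.56 of the Sham mean in MI (SD, n = 3). The libraries of the 2 groups did not overlap in 43 members that were lower in MI, a pattern found in 34.3% of all genes. When libraries were scaled by their totals alone, the median was -0.93 over the members (40 lower, 2 higher) and 0.81 over all genes. With that scaling 1765 of all 15138 genes were called lower and 10488 higher.

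**Figure D1:**
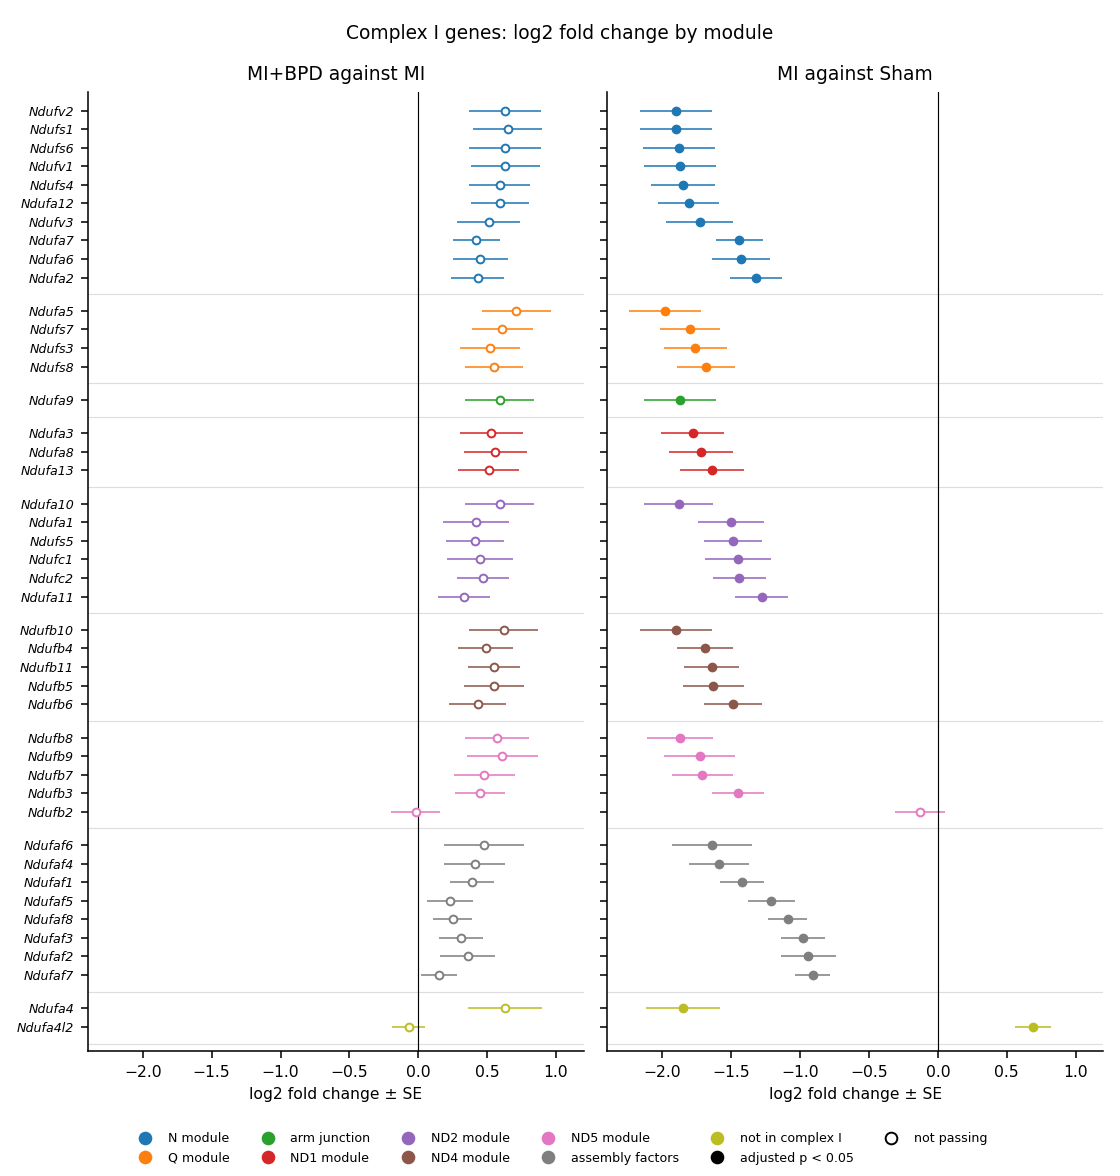
Log2 fold change with its standard error (horizontal axes) for 44 of the 45 tested genes, by module from top to bottom, in MI+BPD against MI (left) and MI against Sham (right). Filled points have an adjusted p under 0.05: 42 filled points on the right lie left of 0 and Ndufa4l2 lies right of it, while no point on the left is filled.

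The 7 core subunits changed within a narrow range, from -1.90 to -1.68 with a median of -1.80. Ndufv1, which binds the flavin that takes the electrons of NADH, stood at 129, 143.5 and 231 CPM in MI, against 584, 627 and 627 CPM in Sham (log2 change -1.87 ± 0.26, SE, adjusted p = 0.000236 in edgeR). Ndufs1, the core subunit with most of the N module's iron-sulfur clusters, averaged 252 ± 87.8 CPM in MI, against 942 ± 25 CPM in Sham (SD, n = 3 each, log2 change -1.90 ± 0.26, SE). Their companion Ndufv2, an iron-sulfur protein, had 104, 119 and 192.5 CPM in MI, against 512, 496 and 547 CPM in Sham (-1.90 ± 0.26). In each of these genes the highest MI library was MI 3, and it lay below all 3 Sham libraries. Ndufs7, an iron-sulfur protein at the ubiquinone site of the Q module, had 38.6, 47.1 and 66.0 CPM in MI, against 166, 178 and 182 CPM in Sham (-1.80 ± 0.22). All of its MI libraries lay below all of its Sham libraries. Ndufs3, another core subunit of the Q module, had 75.0, 84.3 and 131 CPM in MI, against 316, 326 and 342 CPM in Sham (-1.76 ± 0.23). Ndufs8, an iron-sulfur protein of the same module, had 40.4, 48.0 and 72.6 CPM in MI, against 166, 176.5 and 171 CPM in Sham (-1.68 ± 0.21).

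**Figure D2:**
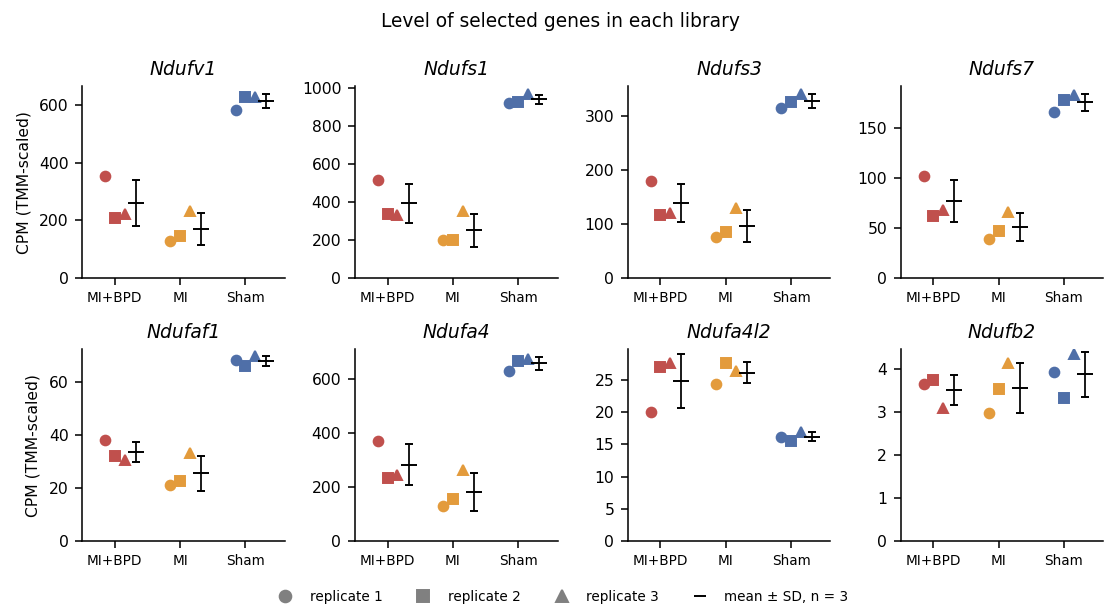
CPM (vertical axes, from 0) of 8 genes in the 3 libraries of MI+BPD, MI and Sham, with replicates as symbols and the mean ± SD in black. The first 6 genes are lower in all MI+BPD and MI libraries than in Sham, Ndufa4l2 is higher, and Ndufb2 overlaps between all 3 groups.

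Of the 28 accessory subunits 27 were lower in MI, with a median of -1.67. The most negative of all members was Ndufa5 of the Q module, with 45.8, 60.6 and 93.7 CPM in MI, against 253.5, 274.5 and 263 CPM in Sham (-1.98 ± 0.26, adjusted p = 0.000174 in edgeR). Next to the core genes named above came Ndufb10 of the ND4 module, with 107, 122 and 195 CPM in MI, against 508, 548 and 519 CPM in Sham (-1.90 ± 0.26). Ndufa10 of the ND2 module had 138, 148 and 249.6 CPM in MI, against 657.5, 651.5 and 670.2 CPM in Sham (-1.88 ± 0.25). All 3 genes had every MI library below every Sham library. By module the median change was -1.83 over 10 subunits of N, -1.77 over 5 of Q, -1.72 over 3 of ND1, -1.47 over 6 of ND2, -1.64 over 5 of ND4 and -1.71 over 5 of ND5. Ndufa9, which sits where the arms meet, was at -1.87 ± 0.26. The modules overlap widely: within N alone, Ndufs4, whose loss is a mouse model of Leigh syndrome, was at -1.85 ± 0.23 and Ndufa2 at -1.32 ± 0.19. The least negative accessory subunit that passed was Ndufa11 of the ND2 module, at 56.9, 67.4 and 98.5 CPM in MI, against 174, 175.5 and 190.5 CPM in Sham (-1.28 ± 0.19). No module was tested against another.

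All 8 assembly factors were lower in MI, with a median of -1.15, set beside -1.72 over the 35 subunits. Nearest to the subunits were Ndufaf6, which acts early in assembly, with 2.85, 3.95 and 6.26 CPM in MI, against 12.1, 13.7 and 14.9 CPM in Sham (-1.64 ± 0.29), and Ndufaf4. Ndufaf4, which with Ndufaf3 helps to build the Q module, had 28.9, 35.5 and 51.7 CPM in MI, against 105, 129 and 114 CPM in Sham (-1.59 ± 0.22). Ndufaf1, part of the complex that assembles the ND2 module, had 20.9, 22.4 and 33.05 CPM in MI, against 68.1, 65.9 and 69.5 CPM in Sham (-1.42 ± 0.16). The groups did not overlap in any of these. Ndufaf5, which hydroxylates the protein of Ndufs7, had 7.05, 9.65 and 11.6 CPM in MI, against 21.6, 20.6 and 23.4 CPM in Sham (-1.21 ± 0.17). Its partner Ndufaf8 had 4.51, 5.17 and 6.63 CPM in MI, against 11.3, 11.8 and 11.4 CPM in Sham (-1.09 ± 0.14).

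The smallest changes were those of Ndufaf3, Ndufaf2 and Ndufaf7. Ndufaf3 had 6.69, 8.14 and 10.4 CPM in MI, against 14.7, 17.7 and 17.5 CPM in Sham (-0.98 ± 0.16). Ndufaf2, a relative of Ndufa12 that acts late, had 5.54, 6.47 and 8.70 CPM in MI, against 15, 12.4 and 12.2 CPM in Sham (-0.94 ± 0.20, adjusted p = 0.00251 in edgeR). Ndufaf7, a methyltransferase, had 14.1, 17.1 and 19.9 CPM in MI, against 30.9, 33.1 and 32.1 CPM in Sham (-0.91 ± 0.13). These groups did not overlap either. With library totals only, 5 of the 8 passed as lower, beside 1765 of all 15138 genes. The median was then -0.43 over the 8 and 0.81 over all genes. Ndufaf7 (-0.19, adjusted p = 0.106), Ndufaf2 (-0.22, 0.237) and Ndufaf3 (-0.26, 0.0985) did not pass in edgeR with this scaling, though they lay below the median over all genes.

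Assembly factor messages were also the scarcer ones. Per kilobase of transcript (median length of a gene's protein-coding transcripts in GENCODE M21), the 8 assembly factors averaged 4.02 to 17.5 CPM per kb in MI and 11.2 to 46.7 in Sham. The 34 subunits other than Ndufb2 averaged 32.5 to 193 CPM per kb in MI and 105 to 717 in Sham. Ndufb4 was the lowest and Ndufb10 the highest of them in both groups, so counted levels of subunits in 1 enzyme differed several-fold. How reads that match more than 1 place were counted is not given in the sources used here, which limits this comparison between genes. Spearman's rho between the mean level per kb over the 9 libraries and the log2 change was -0.31 across the 35 subunits, -0.25 without Ndufb2 and -0.58 across all 45 tested members. With CPM not divided by length it was -0.70 across the 35 subunits and -0.79 across the 45 members. These are descriptions over genes that share the same 9 libraries.

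**Figure D3:**
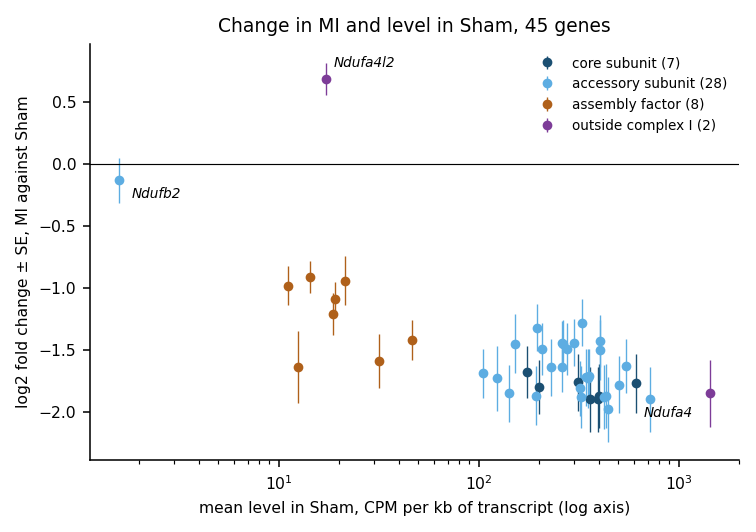
Log2 fold change of MI against Sham with its standard error (vertical axis) and mean Sham level in CPM per kb of transcript (horizontal log axis) for 45 genes, coloured by role. The 8 assembly factors lie left of all subunits but Ndufb2, and Ndufa4l2 is the point above 0.

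The paralogues Ndufa4 and Ndufa4l2 moved in opposite directions. Ndufa4, named as a complex I subunit but found in cytochrome c oxidase, had 129, 155 and 263 CPM in MI, against 630.4, 668 and 675 CPM in Sham (-1.85 ± 0.27, adjusted p = 0.000312 in edgeR). Ndufa4l2, known as a hypoxia-induced gene whose product lowers complex I activity, had 24.4, 27.7 and 26.5 CPM in MI, against 16.1, 15.6 and 16.9 CPM in Sham (0.69 ± 0.13, adjusted p = 0.00096). It was the only member called higher, and its MI libraries all lay above its Sham libraries. For every 100 Ndufa4 reads there were 18.9 (MI 1), 17.9 (MI 2) and 10.1 (MI 3) Ndufa4l2 reads, against 2.33 to 2.55 in Sham.

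Ndufb2, an accessory subunit of the ND5 module, did not pass. It had 2.97, 3.54 and 4.14 CPM in MI, against 3.93, 3.32 and 4.35 CPM in Sham (-0.13 ± 0.18, adjusted p = 0.556), and the groups overlapped. Its level was 1.47 CPM per kb in MI and 1.60 in Sham, far under the 32.5 of the next lowest subunit in MI, Ndufb4. With library totals only it was at 0.60 and passed as higher (adjusted p = 0.0112 in edgeR). That fit called 10488 of all 15138 genes higher, and its median over all genes was 0.81, above the change of Ndufb2. In GENCODE M21 Ndufb2 shares 8.6% of the exons of its protein-coding transcripts with other genes, 3.3% on the same strand. One of these is the readthrough gene Gm42420, which had 0 counts in every library, allowing up to 3 reads in each. Another 6 members share over 10% of these exons with a gene on either strand, among them Ndufb6 (39%, Smim27), Ndufb9 (28.6%, Gm49356, on the same strand) and Ndufb5 (16.7%, Mrpl47), and all 6 were called lower. How reads of overlapping genes were counted is not given in the sources used here, so these counts carry that limit. Of the pseudogenes Ndufa11b had no read, which allows up to 3 in each library, Ndufs6b at most 2 and Ndufb4c 3 to 8 reads in any library, too few to test.

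Complex I genes outside the naming rule went the same way. The 7 subunits encoded by mitochondrial DNA were all lower in MI, with a median of -2.12, from mt-Nd4l at -1.73 ± 0.29 to mt-Nd6 at -2.70 ± 0.36. Few reads were counted for mt-Nd4l, which averaged 4.12 CPM in MI and 13.6 in Sham, beside 7544 and 29270 for mt-Nd4. How reads were assigned among mitochondrial genes is not given in the sources used here. Ndufab1, the mitochondrial acyl carrier protein and a subunit, was at -1.75 ± 0.26, and Ndufb1-ps at -1.45 ± 0.24. Of 14 further assembly factors tested, 14 were lower (median -1.21). They range from Ecsit, a partner of Ndufaf1, at -1.67 ± 0.20 to Sfxn4 at -0.43 ± 0.16 (adjusted p = 0.0378 in edgeR). In complexes II to V 40 of 42 nuclear subunits were lower (median -1.77). The exceptions are Cox6a1 (-0.16 ± 0.11) and Cox8a (-0.20 ± 0.12), broadly expressed isoforms whose heart and muscle counterparts Cox6a2 (-2.11 ± 0.30) and Cox8b (-2.02 ± 0.30) were lower. Among 14 other genes of NADH and quinone use, 14 were lower (median -1.51), Etfdh most (-2.27 ± 0.31) and Gpd2 least (-0.45 ± 0.10). Of 6 regulators of respiratory genes 5 were lower, with the coactivator Ppargc1a at -2.04 ± 0.30, while Nrf1 had 13.1, 14.6 and 14.4 CPM in MI, against 12.5, 14.1 and 13.5 CPM in Sham (0.07 ± 0.10, not passing).

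Within each library the complex I genes kept close to the heart muscle markers. There were 11, 11.8 and 11.6 subunit reads per 100 cardiomyocyte marker reads in MI+BPD, 12.1, 13.1 and 12.1 in MI, and 10.5, 10.7 and 10.8 in Sham. So the ratio differed by far less than the levels themselves, and it was higher in every MI library than in every Sham library. In every MI+BPD library it lay above all Sham libraries and below all MI libraries. Against complexes II to V there were 30.6, 31.3 and 30.5 subunit reads per 100 in MI+BPD, 31, 31.5 and 31.2 in MI, and 30.8, 30.2 and 29.5 in Sham. In MI, MI 1 was the lowest library for 45 of 45 members and MI 3 the highest for 44, and in MI+BPD, MI+BPD 1 was the highest for 42. The part that the number of heart muscle cells has in the change was not tested.

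**Figure D4:**
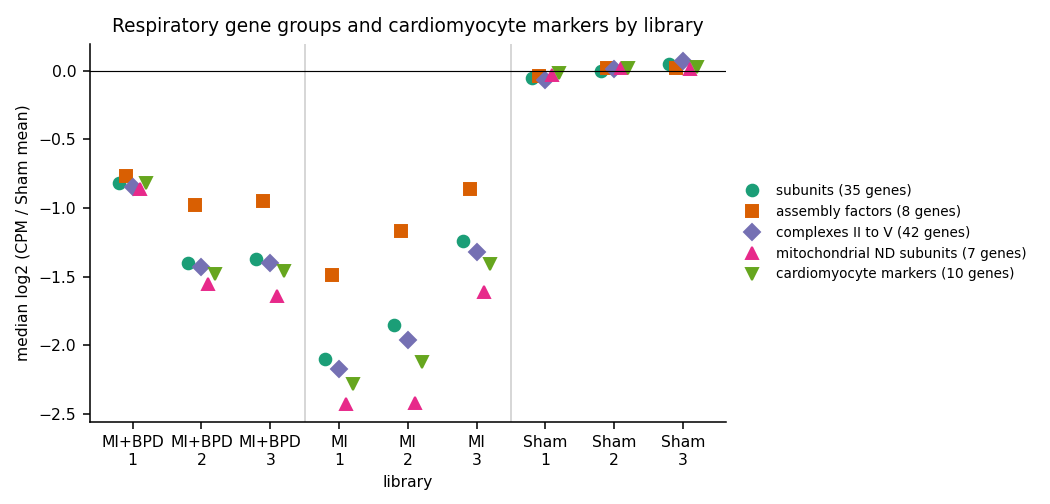
Median log2 ratio of CPM to the Sham mean (vertical axis) in each of the 9 libraries for 5 gene groups. Subunits follow the cardiomyocyte markers from library to library, MI 3 (-1.24) lies near MI+BPD 2 (-1.40) and MI+BPD 3 (-1.37), and assembly factors are less negative than subunits in every MI+BPD and MI library.

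**Figure D5:**
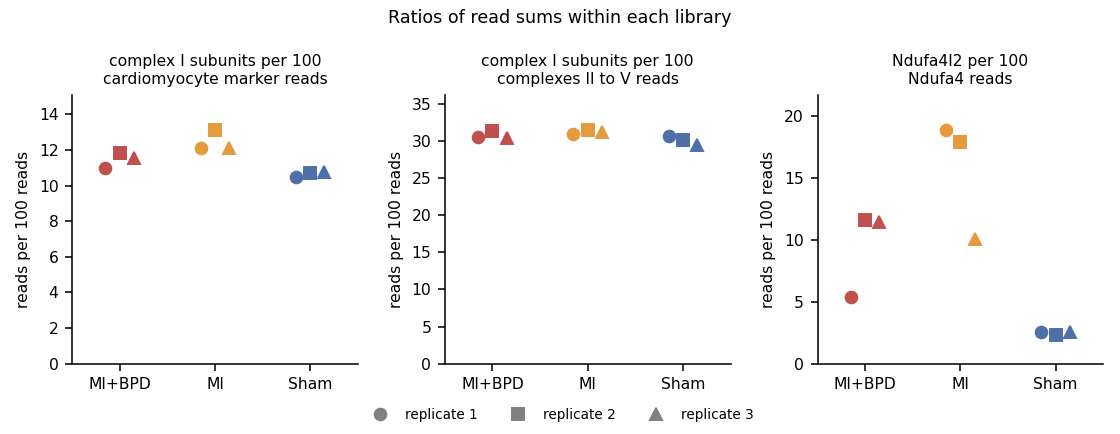
Read sums as ratios within each library (vertical axes, reads per 100 reads, from 0) for MI+BPD, MI and Sham, with replicates as symbols. Subunits per 100 cardiomyocyte marker reads range from 10.5 to 13.1, subunits per 100 reads of complexes II to V from 29.5 to 31.5, and Ndufa4l2 per 100 Ndufa4 reads from 2.33 to 18.9.

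In MI+BPD hearts complex I genes averaged above those of MI hearts, but none passed the test. The subunits summed to 5789, 3893 and 3868 CPM in MI+BPD, against 2347, 2676 and 4198 CPM in MI. The highest MI library lay above the lower 2 MI+BPD libraries, so the groups overlapped, as they did for all 45 tested members. By mean the sum was 43.7% ± 10.7 of the Sham mean in MI+BPD and 29.8% ± 9.56 in MI (SD, n = 3 each). edgeR called 0 of 45 members (0.0% of all genes, smallest adjusted p = 0.369), and DESeq2 called 0 of 45 (0.338% of all genes, smallest adjusted p = 0.208). Of the log2 changes 43 of 45 were above 0, with a median of 0.51 over the members and 0.00 over all genes. At an unadjusted p under 0.05, 28 of 45 were higher, against 8.62% of all genes. Groups that do not overlap, with MI+BPD higher, were found for 0 of 45 members and 6.63% of all genes.

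The 5 members of smallest p were Ndufb11, Ndufa5, Ndufa12, Ndufs7 and Ndufs8. Ndufa5 had 141.5, 90.1 and 94.9 CPM in MI+BPD, against 45.8, 60.6 and 93.7 CPM in MI (0.71 ± 0.25, adjusted p = 0.369 in edgeR). Ndufb11, an X-linked subunit of the ND4 module, had 135, 99.2 and 103 CPM in MI+BPD, against 58.8, 69.7 and 101.5 CPM in MI (0.55 ± 0.19). For Ndufs7 there were 101, 62.3 and 68.0 CPM in MI+BPD, against 38.6, 47.1 and 66.0 CPM in MI (0.61 ± 0.22). In these genes MI 3 reached the level of MI+BPD 2 and MI+BPD 3, and MI+BPD 1 stood above both. Ndufa12 and Ndufs8 were at 0.59 ± 0.21 and 0.55 ± 0.21. The core subunits had a median of 0.61 and the assembly factors of 0.33, beside 0.64 over the 10 cardiomyocyte markers, of which 0 were called. Without MI+BPD 1 these medians were 0.34, 0.19 and 0.41, and without MI 1 they were 0.45, 0.19 and 0.48. Ndufa4 had 370.3, 233 and 242 CPM in MI+BPD, against 129, 155 and 263 CPM in MI (0.63 ± 0.27), and Ndufa4l2 had 20.0, 27.1 and 27.6 CPM in MI+BPD, against 24.4, 27.7 and 26.5 CPM in MI (-0.07 ± 0.12, adjusted p = 0.791). Ndufb2 had 3.65, 3.75 and 3.098 CPM in MI+BPD, against 2.97, 3.54 and 4.14 CPM in MI (-0.02 ± 0.18).

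This comparison depends on the tool, on MI 3 and on MI+BPD 1. In 39 of 45 members MI+BPD 2 and MI+BPD 3 both lay within the range of the MI libraries. MI+BPD 1 lay above all 3 MI libraries in 42 of 45. limma-voom with quality weights called 25 of 45 members higher, against 5.42% of all genes, and 7 of 10 cardiomyocyte markers. Scaled by library totals only, edgeR called 0 of 45, and the median was 0.30 over the members and -0.20 over all genes. Without MI 3 edgeR called 33 of 45 higher (median 0.78), against 7.29% of all genes, and 7 of 10 cardiomyocyte markers were called higher beside them. With MI 3 and MI+BPD 1 both left out it called 35 of 45 (median 0.55), against 7.65%, and all 10 cardiomyocyte markers. Both libraries were singled out after their high levels were seen, and leaving them out narrows the spread within their groups. The calls in these fits are therefore no independent evidence of a change. Without MI+BPD 1 alone edgeR called 0 of 45, with a median of 0.28. The part that the heart muscle content of the libraries has in these calls was not tested.

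Against Sham, complex I genes were lower in MI+BPD hearts too. Of 45 members 43 were lower, 1 was higher and 1 did not pass in edgeR, against 27.8% lower and 31.8% higher over all genes. The median was -1.13, against 0.04 over all genes. The 43 members had MI+BPD libraries entirely below the Sham libraries, as 32.7% of all genes did. Subunits had a median of -1.19 and assembly factors of -0.91. With library totals only, 39 members were called lower, 4 of the 8 assembly factors among them. Of all 15138 genes, 1383 were called lower and 9131 higher with this scaling. The medians were then -0.62 over the members, -0.38 over the assembly factors and 0.57 over all genes. Ndufb8 and Ndufa10 were the most negative (-1.30 ± 0.23 and -1.30 ± 0.25). Ndufa4l2 was higher, with 20.0, 27.1 and 27.6 CPM in MI+BPD, against 16.1, 15.6 and 16.9 CPM in Sham (0.62 ± 0.13, adjusted p = 0.00278 in edgeR), and for every 100 Ndufa4 reads it had 5.403, 11.6 and 11.4 in MI+BPD. The least certain call was that of Ndufaf2, with 11.02, 7.49 and 8.025 CPM in MI+BPD, against 15, 12.4 and 12.2 CPM in Sham (-0.58 ± 0.20, adjusted p = 0.0316). It did not pass without Sham 1, 2 or 3 or without MI+BPD 2 or 3 (adjusted p 0.052 to 0.1095), nor with library totals only (-0.07). Ndufb2 was at -0.15 ± 0.18 (adjusted p = 0.516). These results share the Sham libraries with the comparison of MI with Sham and are not independent of it.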

How the data were processed

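The values deposited by the authors are raw counts, 1 row for each symbol, not normalized. STAR and the builds mm10, GRCm39 and mm39 are named, without roles, in the submitters' processing notes, and libraries were made with a VAHTS V6 kit per the labels' protocols. What program counted the reads, with which strand setting and gene models, is not given in the sources used here. Counts were fitted in R 4.3.3 with edgeR 4.0.16 over all 9 libraries by group: TMM factors, filterByExpr (minimum count 10, minimum total 15), robust quasi-likelihood F test, 2-sided, 6 residual degrees of freedom, Benjamini-Hochberg over 15138 genes, called at an adjusted p under 0.05. The SE follows from the F statistic, and CPM are TMM-scaled. Alternatives used DESeq2 1.42.0, limma 3.58.1, other scalings and filters, a replicate block and libraries left out. Members and lists were chosen with earlier results of these data known. Genes named are the core subunits (1 is not reported here by name), the assembly factors, Ndufa4, Ndufa4l2, the pseudogenes, the 5 most and 5 least negative and all not called lower in MI against Sham, the 5 of smallest p in MI+BPD against MI, and exceptions and extremes of other lists; Ndufs4, Ndufa9, Ndufa2, Ndufa11, Ndufb4, Ndufb8, Cox6a2, Cox8b and the overlapping genes were added after their values were seen.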

Additional observations from a re-analysis of the deposited data

How the results depend on the processing

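With each library left out in turn, 43 members were called lower in MI against Sham and 42 or 43 in MI+BPD against Sham, and medians ran from -1.96 to -1.48 and from -1.35 to -1.05. Members called higher in MI+BPD against MI ranged from 0 to 33 over these fits, were 25 in limma-voom and 35 without MI 3 and MI+BPD 1, and the median ranged from 0.28 to 0.78. With library totals only, medians were -0.93 in MI against Sham and -0.62 in MI+BPD against Sham, and 2 members were called higher in MI against Sham. Ndufb2 turned to 0.60 in MI against Sham and 0.38 in MI+BPD against Sham, below the medians over all genes of 0.81 and 0.57. Of all 15138 genes, 10488 were called higher in MI against Sham with this scaling. Members called higher were 0 against Sham in MI and in MI+BPD without Ndufa4, Ndufa4l2 and the pseudogenes, and likewise at a fold of at least 2. At that fold 40 members were called lower in MI against Sham and 33 in MI+BPD against Sham. The share of all genes called at that fold was not computed, so these counts have no background beside them. In MI+BPD against MI, Ndufa4l2, from -0.15 to 0.04 with a library left out, turned to 0.04 without MI+BPD 1 and without MI 3 and MI+BPD 1, and Ndufb2, from -0.13 to 0.11 with a library left out, turned to 0.06 without MI+BPD 3, to 0.11 without MI 3 and to 0.04 without MI 3 and MI+BPD 1. The cause was not tested. Of 660 single-gene checks 626 kept direction and side of the threshold. Replicate numbers showed no sign of pairing the samples, though so few libraries cannot exclude it. Correlations of same-numbered deviations were -0.158 to 0.194, and those of different numbers -0.277 to 0.207. With a replicate block 43 members were lower and 1 higher in MI against Sham, 0 were called in MI+BPD against MI, and 43 were lower in MI+BPD against Sham. Leaving out the library pair, and the members named, were chosen after seeing the data. The 3 pseudogenes had too few reads to test.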
